A study of Mus musculus with 24 samples.

Results

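From 6 genes of integrin adhesion and of the actin cytoskeleton, Itgbl1, Tns3, Ptk2, Rock1, Ablim3 and Mtss1, 13 circular RNAs were read. They are all the back-splice junctions in the authors' table whose 2 ends matched exon edges of 1 of these genes on the same strand. They make up 13 of 1717 circular RNAs and 6 of 1187 host genes. Fibroblasts had been isolated from hearts of C57BL/6J males that underwent transverse aortic constriction (TAC), a tie around the aortic arch that raises the pressure load on the left ventricle, at 8 weeks of age, or a sham operation. The groups were TAC 1 week (4 libraries), sham 1 week (4), TAC 4 weeks (4), sham 4 weeks (5), TAC 8 weeks (3) and sham 8 weeks (4), with times counted from surgery. No transgene or deletion is named for any group. The hearts were digested on a Langendorff apparatus, and no sort for fibroblasts is described. Whether each library is a separate mouse is not stated, so the p-values speak of the variation among libraries, part of which can be technical.

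A circular RNA forms when the end of a downstream exon is spliced back to the start of an upstream one, and only reads across that join are counted here. Integrins hold cells to the matrix, and on the inside of the membrane adaptor and kinase proteins couple them to actin filaments, on which myosin pulls. Cardiac fibroblasts use this chain to sense stiffness, to migrate and to contract as myofibroblasts. These are roles of the proteins of the host genes. Nothing was measured here on proteins, on linear mRNA or on what the circles do.

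Sequences are given for junctions within coding exons of Tns3, Ptk2, Itgbl1 and Mtss1, and they show which ends are shared. Those of Ablim3 and Rock1 and of the Ptk2 circles with untranslated sequence are not given, though their results follow below. Each run holds 20 bases on either side of the join, in the sense of the gene, from the GENCODE M21 transcripts of the mm10 build. Lower case is the end of the last exon of the circle and capitals are the start of its first exon. The Tns3 junctions are on chromosome 11, minus strand, and the first and second share their lower-case side.
Tns3 exons 11 to 16, chr11:8518199-8532509: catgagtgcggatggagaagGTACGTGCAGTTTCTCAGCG
Tns3 exons 14 to 16, chr11:8518199-8519570: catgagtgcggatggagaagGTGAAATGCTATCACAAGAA
Tns3 exons 18 to 20, chr11:8478225-8479665: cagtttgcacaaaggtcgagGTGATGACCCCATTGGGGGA
The next 3 junctions, of Ptk2 on the minus strand of chromosome 15, all end with exon 14 and differ only in the exon to which it is joined back.
Ptk2 exons 8 to 14, chr15:73292035-73309869: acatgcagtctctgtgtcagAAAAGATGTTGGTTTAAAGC
Ptk2 exons 9 to 14, chr15:73292035-73304547: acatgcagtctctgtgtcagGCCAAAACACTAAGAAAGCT
Ptk2 exons 11 to 14, chr15:73292035-73298245: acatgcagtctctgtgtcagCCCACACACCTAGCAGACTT
Itgbl1 and Mtss1 had 1 junction each, on the plus strand of chromosome 14 and the minus strand of chromosome 15.
Itgbl1 exons 3 to 7, chr14:123827752-123857579: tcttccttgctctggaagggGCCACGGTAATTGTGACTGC
Mtss1 exons 4 to 6, chr15:58968839-58972560: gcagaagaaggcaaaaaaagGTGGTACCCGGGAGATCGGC

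The 3 Tns3 circles used 6, 3 and 3 exons of a 31-exon transcript, with exonic lengths of 551, 301 and 360 nt. Itgbl1 exons 3 to 7 joined 5 of 11 exons (699 nt) and lay between introns of 166243 bp upstream and 96991 bp downstream. Ptk2 gave 6 circles. Exons 2 to 4 (chr15:73391759-73394744, 323 nt) lay upstream of the start codon in untranslated exons, numbered on a different annotated transcript from the other 5. A second transcript with the same ends lacks the middle exon, so its mature length is not certain. Ptk2 exons 3 to 5 (chr15:73325749-73343359, 482 nt) and exons 3 to 7 (chr15:73320775-73343359, 625 nt) started from the same exon and held the start codon. The 13 circles spanned a median of 12513 bp of genome, against 6325 bp over the 1657 circles with annotated exons, and had a median of 4 exons against 3. Their exonic length was a multiple of 3 in 4 of 13 (30.8%), against 589 of 1657 (35.5%). The span was described and not tested.

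**Figure D1:**
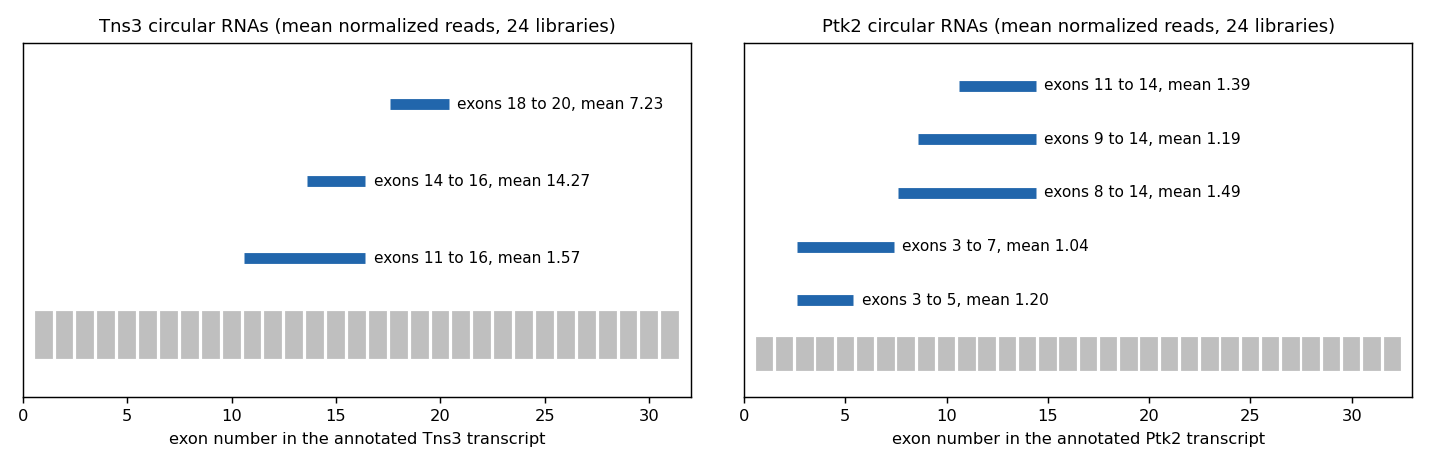
Exons joined in the Tns3 circles (left) and in 5 of the 6 Ptk2 circles (right), with exon number along the annotated transcript on the horizontal axis, grey boxes as exons, drawn at equal width, and blue bars as the exons each circle spans. Exons 14 to 16 of Tns3 (mean 14.3 normalized reads) and exons 11 to 16 (1.57) end at the same exon, as do the Ptk2 circles ending at exon 14; Ptk2 exons 2 to 4 belong to another transcript and are left out.

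Values are normalized reads: junction reads divided by the authors' factor for each library, with their constant of 0.01 taken off. Libraries held 3595 to 9146 junction reads in all, and 1 read was worth 0.642 to 1.57 normalized reads, so a value of 1 or 2 rests on 1 to 3 reads. Tns3 was the most read of the 6 genes with 555 reads, 0.400% of all junction reads. Ptk2 had 318 reads (0.229%), Ablim3 140 (0.101%), Itgbl1 68 (0.0490%), Mtss1 47 (0.0338%) and Rock1 35 (0.0252%). Only Tns3 exons 14 to 16, rank 47 of 1717 by mean, had a read in all 24 libraries.

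The 6 genes were chosen by results of these same libraries, among them the TAC against sham fold changes at 1 week and over the 3 times. All TAC against sham values of the 13 circles are therefore a description, with the calls counted beside the whole table and nothing supported by a p. Log2 fold changes (TAC over sham) are from limma on log2(normalized reads + 0.5) with standard errors (SE). A call is an adjusted p under 0.05 by the Benjamini-Hochberg method over 1717 circles. This scale understates the change of scarce circles.

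At 1 week 4 of the 13 circles were called, 3 higher and 1 lower in TAC, in a table where 1.46% of circles were called (25 of 1717). The higher ones were Itgbl1 exons 3 to 7, Tns3 exons 18 to 20 and Tns3 exons 14 to 16, and the lower one was Ablim3 exons 4 to 8. With the replicate number as a block among the 1-week libraries, 40 circles of the table were called and the same 4 of the 13. Limma-voom called 11 of the table and 3 of the 13, and a fit of the 1-week libraries alone called 4 and 1 (Tns3 exons 18 to 20). With 1 library of that time left out, 6 to 32 of the table (0.349% to 1.86%) and 1 to 4 of the 13 were called; the lowest count of the 13, only Tns3 exons 18 to 20, came without TAC replicate 3. Over all 13, 5 fold changes were positive and 8 negative, with a median of -0.09, against 0.04 over the whole table. The 9 circles not called, 6 of Ptk2 and 1 each of Tns3, Rock1 and Mtss1, lay between -1.04 and 0.62. Averaged over the 3 times with equal weight, 2 of the 13 were called, both higher in TAC, against 0.641% of the table (11 of 1717). With the replicate number as a block 1 of these 2 was called, Tns3 exons 18 to 20.

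**Figure D2:**
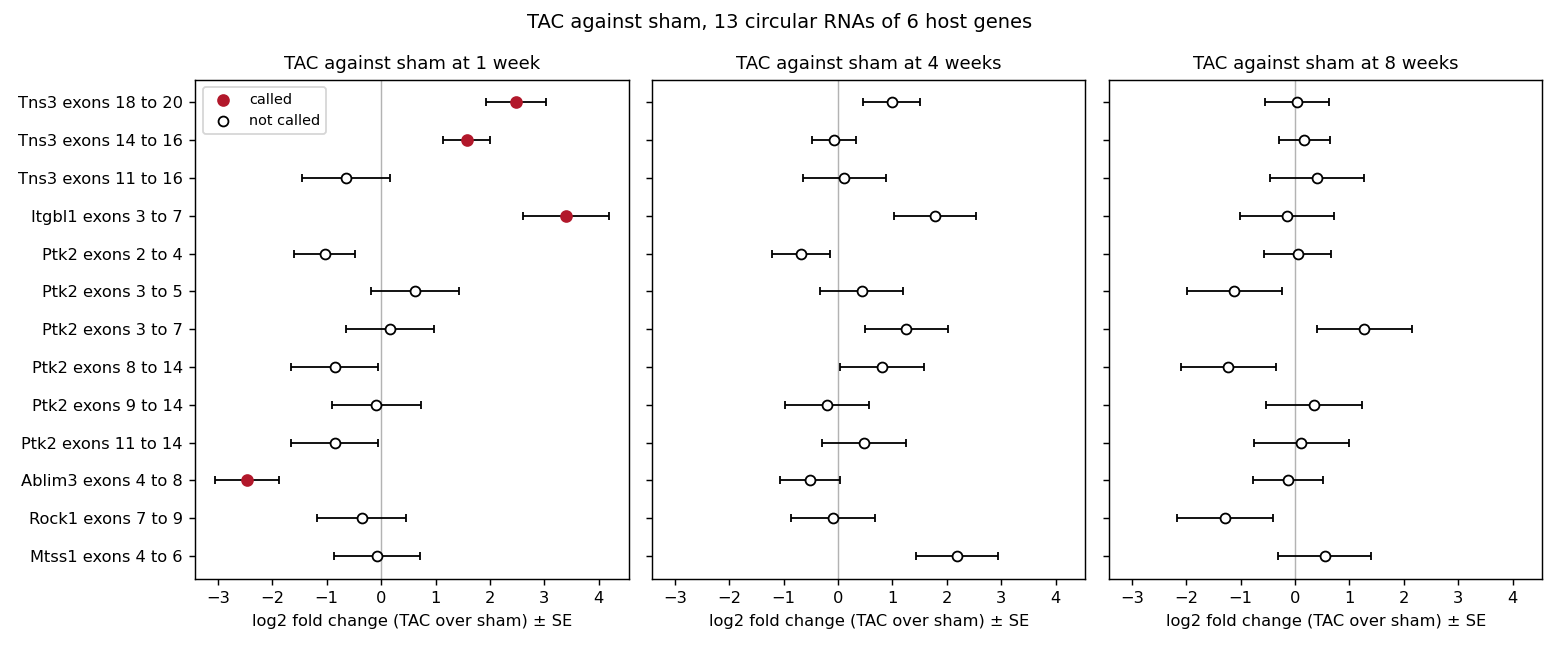
Log2 fold change of TAC over sham (horizontal axis) with its SE as bars, for the 13 circular RNAs (rows), at 1, 4 and 8 weeks (panels); filled red points are called. Itgbl1 exons 3 to 7 stood at 3.39 and Ablim3 exons 4 to 8 at -2.46 at 1 week, and no circle was called at 4 or 8 weeks.

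Itgbl1 encodes a secreted protein with repeats like those of integrin beta subunits. At 1 week its circle had 3.08, 1.92, 15.97 and 4.86 normalized reads in the TAC libraries and 0 in all 4 sham libraries. TAC libraries thus held 25 reads (mean 6.46 ± 6.46, SD, n = 4), at least 6.95-fold more than the floor of 3 reads for the sham group as a whole, 0.929 normalized reads. The floor covers counting error only. The fitted log2 fold change was 3.39 ± 0.79 (SE). TAC replicate 3 alone held 16 of the 25 reads, and without it the fold change was 2.84 and no longer called.

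At 4 weeks Itgbl1 exons 3 to 7 had 1.69, 2.20, 12.3 and 2.57 normalized reads in TAC and 1.87, 1.57, 0, 1.02 and 0 in sham. The groups overlapped, and the log2 fold change was 1.79 ± 0.75. At 8 weeks it had 7.18, 0 and 0.857 in TAC and 1.06, 3.30, 0.962 and 1.06 in sham, with a log2 fold change of -0.15 ± 0.86. The circle was thus read in all TAC libraries at 1 and 4 weeks, each time with most reads in 1 library, and in 2 of 3 at 8 weeks. Its averaged log2 fold change of 1.68 ± 0.46 was called, but the call was lost with the replicate block and in 13 of the 24 fits that left out 1 library.

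Tns3 encodes tensin 3, a cytoplasmic linker between integrin tails and actin. At 1 week Tns3 exons 18 to 20 had 19.99, 12.5, 7.99 and 17.5 normalized reads in TAC and 3.77, 3.74, 0 and 4.14 in sham. The groups did not overlap. Means were 14.5 ± 5.35 in TAC and 2.91 ± 1.95 in sham (SD, n = 4 each), a log2 fold change of 2.48 ± 0.55. Without sham replicate 3, the library at 0, it was 1.70 and not called.

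Tns3 exons 18 to 20 did not overlap at 4 weeks either, with 11.8, 8.07, 9.44 and 8.35 in TAC and 5.61, 3.14, 4.34, 4.07 and 5.53 in sham. The log2 fold change of 0.99 ± 0.52 was not called. At 8 weeks it had 4.79, 7.15 and 6.86 in TAC and 6.38, 4.40, 8.66 and 5.30 in sham, and the TAC values lay within the sham range (0.04 ± 0.60). TAC means were 14.5, 9.42 and 6.27 at 1, 4 and 8 weeks, and sham means were 2.91, 4.54 and 6.19. The averaged value, 1.17 ± 0.32, was called and lost its call in 18 of the 24 fits that left out 1 library.

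Tns3 exons 14 to 16, the most abundant of the 13, had 30.8, 25.9, 21.96 and 15.6 in TAC and 20.1, 4.99, 4.51 and 6.204 in sham at 1 week. Sham replicate 1 lay among the TAC libraries, so the groups overlapped. Means were 23.5 ± 6.42 in TAC and 8.95 ± 7.47 in sham (SD, n = 4 each), and the log2 fold change was 1.57 ± 0.43. This call was the least stable of the 4: it was lost on leaving out TAC replicate 1, 2 or 3 or sham replicate 2, 3 or 4, with fold changes of 1.36 to 2.04 over the 8 fits.

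At 4 weeks Tns3 exons 14 to 16 had 20.3, 12.5, 13.8 and 7.71 in TAC and 23.4, 18.9, 6.94, 22.4 and 6.45 in sham, with a log2 fold change of -0.07 ± 0.41. At 8 weeks it had 9.58, 13.3 and 12.9 in TAC and 5.32, 11.0, 15.4 and 12.7 in sham (0.17 ± 0.47). The groups overlapped at both times. The longer circle with the same last exon, exons 11 to 16, was scarce: 0 to 2.99 in TAC and 0 to 3.77 in sham at 1 week (-0.65 ± 0.81), with 37 reads in all.

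How Tns3 reads divided among its circles was described by shares. Exons 18 to 20 took 52 of 142 Tns3 reads in TAC at 1 week (36.6%, exact 95% binomial interval 28.7% to 45.1%) and 10 of 45 in sham (22.2%, 11.2% to 37.1%). At 4 weeks they took 51 of 132 in TAC (38.6%, 30.3% to 47.5%) and 23 of 105 in sham (21.9%, 14.4% to 31.0%). At 8 weeks the shares were 31.7% in TAC (19 of 60, 20.3% to 45.0%) and 33.8% in sham (24 of 71, 23.0% to 46.0%). The intervals cover counting error only, and reads without molecular identifiers are not independent molecules. The intervals of TAC and sham overlapped at each time, at 4 weeks only between 30.3% and 31.0%. Such overlap does not show that shares are alike, and the shares were not tested.

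**Figure D3:**
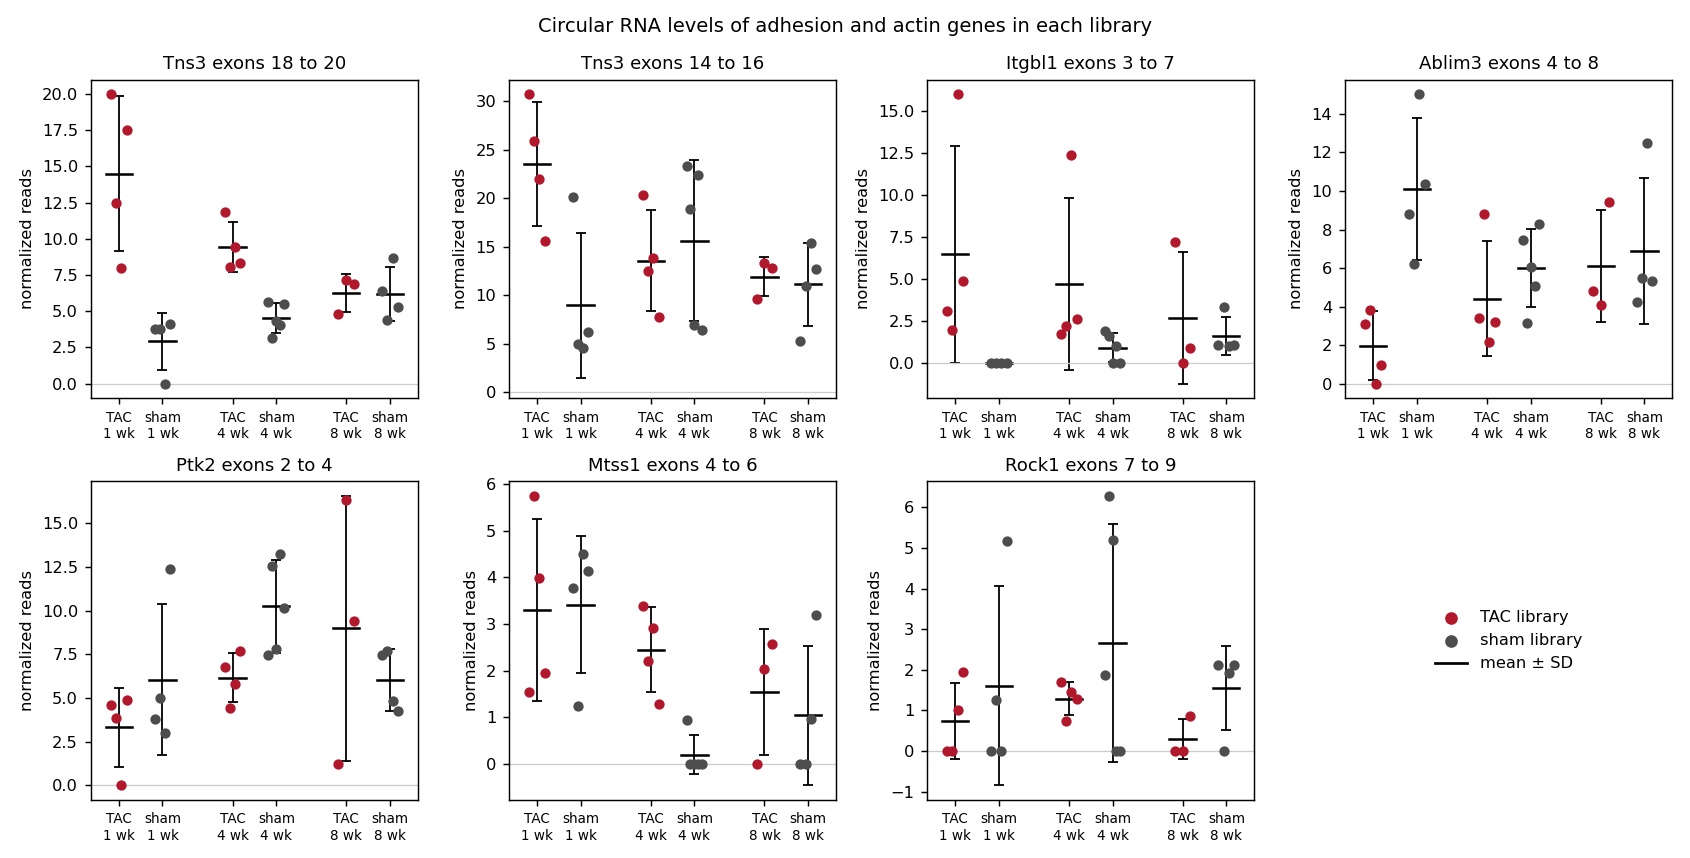
Normalized reads (vertical axis) of 7 circular RNAs in each of the 24 libraries, TAC in red and sham in grey at 1, 4 and 8 weeks, with mean and SD. At 1 week the TAC libraries of Tns3 exons 18 to 20 lay between 7.99 and 19.99 and the sham libraries between 0 and 4.14, and those of Ablim3 exons 4 to 8 lay between 0 and 3.83 in TAC and between 6.23 and 15.0 in sham.

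Ptk2 encodes focal adhesion kinase, which is activated where integrins cluster. None of its 6 circles was called in any comparison. Exons 2 to 4, the most read with 167 of 318 Ptk2 reads (52.5%, 46.9% to 58.1%), had 4.61, 3.83, 0 and 4.86 in TAC and 3.77, 4.99, 3.01 and 12.4 in sham at 1 week. Their share ranged over groups, with 32.4% in TAC 1 week (18.01% to 49.8%) the lowest and 71.0% in sham 4 weeks (58.8% to 81.3%) the highest, and was not tested. They had 6.76, 4.40, 5.81 and 7.71 in TAC and 7.47, 12.6, 7.81, 13.2 and 10.1 in sham at 4 weeks. TAC was the lower group on average at both times, with overlap, and log2 fold changes were -1.04 ± 0.57 and -0.68 ± 0.54. At 8 weeks the 3 TAC libraries ran over 1.20, 16.3 and 9.43 and the sham libraries over 7.45, 7.70, 4.81 and 4.24 (0.05 ± 0.61).

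The other 5 Ptk2 circles had 26 to 35 reads each over the 24 libraries. Their log2 fold changes ranged over -0.86 to 0.62 at 1 week, -0.21 to 1.26 at 4 weeks and -1.23 to 1.28 at 8 weeks. Of the 3 that end at exon 14, exons 8 to 14 had -1.23 ± 0.87 at 8 weeks, exons 9 to 14 had 0.35 ± 0.88 and exons 11 to 14 had 0.12 ± 0.87. None of these passed the threshold, and differences among the 3 were not tested. Exons 3 to 7 at 4 weeks held 7 reads in TAC and 1 in sham, a ratio of 6.29 with a counting interval of 0.808 to 284.

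Ablim3 encodes an LIM-domain protein that binds actin filaments. Its circle (chr18:61839690-61857185, minus strand, exons 4 to 8 of 24, 606 nt) had 3.08, 3.83, 0 and 0.973 in TAC and 8.79, 6.23, 15.0 and 10.3 in sham at 1 week. The groups did not overlap. Means were 1.97 ± 1.79 in TAC and 10.1 ± 3.70 in sham (SD, n = 4 each), a log2 fold change of -2.46 ± 0.59. Without TAC replicate 3, the library at 0, the value was -1.84 and not called.

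Ablim3 exons 4 to 8 had 3.38, 8.80, 2.18 and 3.21 in TAC and 7.47, 3.14, 6.07, 5.09 and 8.29 in sham at 4 weeks. At 8 weeks it had 4.79, 4.09 and 9.43 in TAC and 4.26, 5.50, 12.5 and 5.30 in sham. The groups overlapped at both times, with log2 fold changes of -0.52 ± 0.56 and -0.13 ± 0.64. TAC means were 1.97, 4.39 and 6.10 at 1, 4 and 8 weeks, and sham means were 10.1, 6.01 and 6.89.

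Rock1 encodes a kinase that raises actomyosin tension. Its circle (chr18:10129305-10132272, minus strand, exons 7 to 9 of 33, 376 nt) had 0, 0, 0.998 and 1.95 in TAC and 0, 1.25, 0 and 5.17 in sham at 1 week. At 4 weeks it had 1.69, 0.734, 1.45 and 1.28 in TAC and 1.87, 6.28, 5.21, 0 and 0 in sham. The log2 fold changes were -0.36 ± 0.82 and -0.10 ± 0.77, with the groups overlapping. At 8 weeks it had 0, 0 and 0.857 in TAC and 2.13, 0, 1.92 and 2.12 in sham (-1.29 ± 0.88). TAC held 1 read and sham 6, a ratio of 0.214 with a counting interval of 0.00466 to 1.77.

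Mtss1 encodes a protein that binds curved membrane and actin. At 1 week its circle had 1.54, 5.75, 3.99 and 1.95 in TAC and 3.77, 1.25, 4.51 and 4.14 in sham, with a log2 fold change of -0.08 ± 0.79. At 4 weeks it had 3.38, 2.20, 2.90 and 1.28 in TAC and 0.934, 0, 0, 0 and 0 in sham. The groups did not overlap there, on 13 reads against 1, a ratio of 11.7 with a counting interval of 1.76 to 497. The log2 fold change of 2.19 ± 0.75 was not called, and with a pseudocount of 0.1 in place of 0.5 it was 3.91. At 8 weeks it had 0, 2.04 and 2.57 in TAC and 0, 0, 0.962 and 3.18 in sham (0.55 ± 0.86).

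None of the 13 was called at 4 weeks by limma or by limma-voom on reads recovered from the values, and 2 (Mtss1 exons 4 to 6 and Itgbl1 exons 3 to 7) had an unadjusted p under 0.05. Of all 1717 circles, 0.116% were called then (2), 137 had an unadjusted p under 0.05 and 7 were called by limma-voom. At 8 weeks none of the 13 was called by either method and none had an unadjusted p under 0.05. The table held 0% called at 8 weeks, with 104 circles at an unadjusted p under 0.05 and 0 called by limma-voom.

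Changes between times within a surgery group came from the same fit, and none of the 13 was called by limma or limma-voom. They rest on the 1-week libraries, TAC or sham, whose difference was known when the genes were chosen. The later groups enter the averaged fold changes, also known then. For all 13 circles they are therefore a description. In TAC, the log2 fold change of Ablim3 exons 4 to 8 was 1.24 ± 0.59 at 4 weeks over 1 week and 1.76 ± 0.64 at 8 weeks over 1 week. Ptk2 exons 2 to 4 had 1.24 ± 0.57 at 4 weeks over 1 week and 1.24 ± 0.61 at 8 weeks over 1 week. In TAC at 8 weeks over 1 week Tns3 exons 14 to 16 had -0.93 ± 0.47. The TAC steps given here for Ablim3, Ptk2 and Tns3 exons 14 to 16 had an unadjusted p under 0.05 (limma). Itgbl1 exons 3 to 7 had -1.60 ± 0.86 and Tns3 exons 18 to 20 had -1.09 ± 0.60 in TAC at 8 weeks over 1 week, not under 0.05.

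In the sham libraries the log2 fold change of Mtss1 exons 4 to 6 was -2.55 ± 0.75 at 4 weeks over 1 week (adjusted p 0.209, limma). Itgbl1 exons 3 to 7 had 1.94 ± 0.79 and Tns3 exons 18 to 20 had 1.35 ± 0.55 at 8 weeks over 1 week in sham, where their sham 1 week values, with Itgbl1 at 0 in all 4 libraries, are those of the 1-week calls. None of these differences between sham groups passed the threshold. Circles of the 13 with an unadjusted p under 0.05 numbered 2 for TAC at 4 weeks over 1 week, 3 for TAC at 8 weeks over 1 week, and 3 for sham at each of the same steps. The table held 0% called for TAC at 4 weeks and at 8 weeks over 1 week (88 and 129 at an unadjusted p under 0.05; 1 and 0 by limma-voom). It held 0% for sham at 4 weeks over 1 week (130 and 0 by the same measures). For sham at 8 weeks over 1 week it held 0.116%, Strn3 and Ash1l (129 and 1).

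The difference of the TAC effect between times is an interaction term. It holds the 1-week TAC against sham change by which the genes were chosen, so it is given as a description. For 8 weeks minus 1 week the largest differences among the 13 were -3.54 ± 1.17 for Itgbl1 exons 3 to 7 and -2.44 ± 0.81 for Tns3 exons 18 to 20. Ablim3 exons 4 to 8 had 2.33 ± 0.87 and Tns3 exons 14 to 16 had -1.40 ± 0.64. For 4 weeks minus 1 week the largest difference was 2.27 ± 1.09 for Mtss1 exons 4 to 6. Tns3 exons 14 to 16 had -1.65 ± 0.60 and Ablim3 exons 4 to 8 had 1.95 ± 0.81. None of the 13 was called in either by limma or limma-voom, and 4 and 3 had an unadjusted p under 0.05. The table held 0% called in each (148 and 138 at an unadjusted p under 0.05; 0 by limma-voom). So a call at 1 week beside none at 8 weeks was not shown to be a difference between the times.

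**Figure D4:**
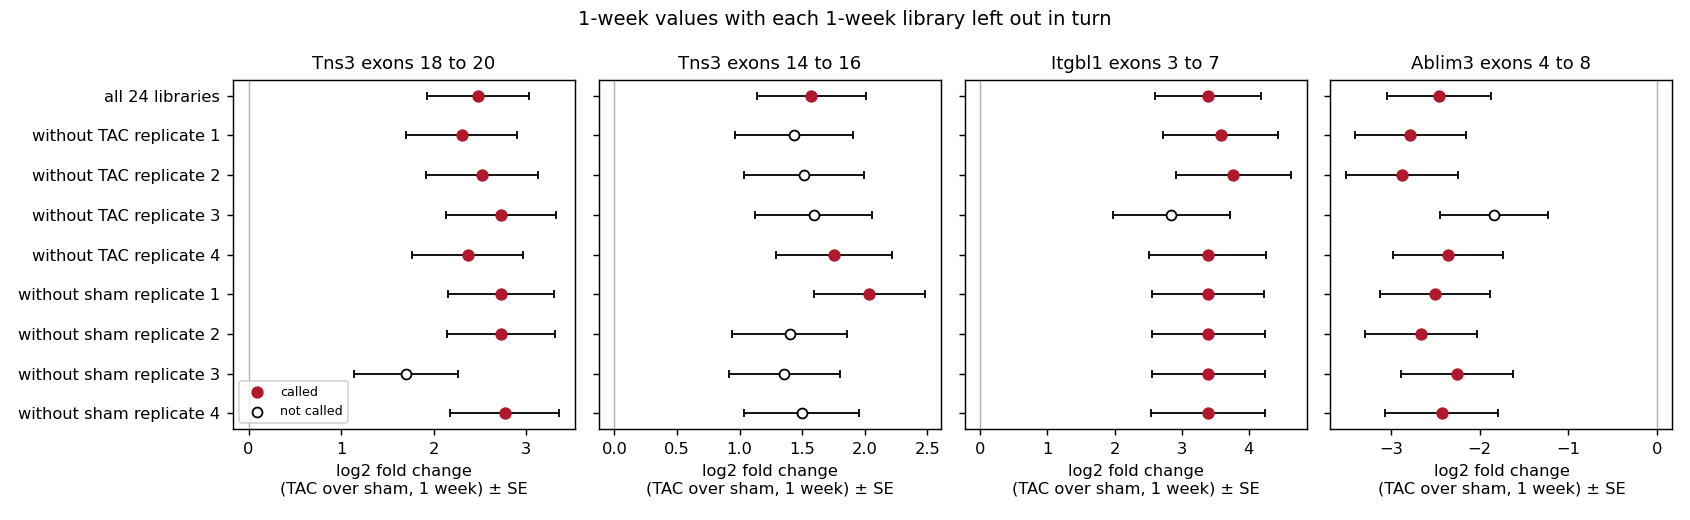
Log2 fold change of TAC over sham at 1 week with its SE (horizontal axis) for the 4 circular RNAs called at that time, in the full fit (top row) and with each 1-week library left out in turn; open points were not called. Tns3 exons 18 to 20 lost the call without sham replicate 3, Itgbl1 exons 3 to 7 and Ablim3 exons 4 to 8 without TAC replicate 3, and Tns3 exons 14 to 16 in 6 of 8 fits.

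Libraries at 1 week also differed in circles of genes that mark other cell types. Sham replicate 3 stood apart: circles of cardiomyocyte marker genes summed to 144 normalized reads there, against 25.9 to 33.8 in the TAC and 40.3 to 77.3 in the other sham libraries. Circles of 4 fibroblast marker genes (Dcn, Lamc1, Nav1 and Fbn1) summed to 1.503 in it, which is 1 read. They summed to 6.81 to 16.9 in the TAC and 11.4 to 21.4 in the other sham libraries. In the same library Tns3 exons 18 to 20 were at 0, Tns3 exons 14 to 16 were at their lowest of the 1-week libraries (4.51), and Ablim3 exons 4 to 8 at their highest (15.0). Without it 2 of the 13 were called at 1 week, Itgbl1 exons 3 to 7 (at 3.39) and Ablim3 exons 4 to 8 (at -2.26), in a table with 1.34% called. Sham 1 week replicate 2, with the next highest 1-week cardiomyocyte sum (77.3), had the lowest Ablim3 value of the 1-week sham libraries (6.23). Sham 4 weeks replicate 3 and sham 8 weeks replicate 1 also had high sums, 135 and 133. Tns3 exons 18 to 20 were at 4.34 and 6.38 there, Tns3 exons 14 to 16 at 6.94 and 5.32. Ablim3 exons 4 to 8 were at 6.07 and 4.26. A link of these circles to the sum was not tested. In bulk RNA, fewer cells of a type and less circular RNA per cell cannot be told apart.

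The cardiomyocyte list had circles for 9 of 26 genes (14 circles), and they summed to 25.9 to 33.8 in TAC and 40.3 to 144 in sham at 1 week. The sums were 18.9 to 44.3 in TAC and 41.5 to 135 in sham at 4 weeks, and 44.6 to 55.2 in TAC and 62.6 to 133 in sham at 8 weeks. TAC lay below sham at 1 and 8 weeks, and the groups overlapped at 4 weeks. Of its 14 circles 5 were positive and 9 negative at 1 week, and 2 were called. Myh6, Myh7, Tnnt2 and Actn2 of the list had no circle. Leukocyte genes had circles for 10 of 21 genes (27 circles) and summed to 92.4 to 183 in TAC and 87.2 to 198 in sham at 1 week, with 19 positive, 8 negative and none called. Sham replicate 1, the library where Tns3 exons 14 to 16 reached 20.1, held the highest leukocyte sum, 198. In the TAC libraries at 1 week those exons and the leukocyte sum had the same order, 30.8, 25.9, 21.96 and 15.6 for the exons and 183, 149, 130 and 92.4 for the sum. The orders were also the same in sham at 1 week, but in neither surgery group at 4 or 8 weeks. In TAC at 4 weeks the exons had 20.3, 12.5, 13.8 and 7.71 and the sum 116, 154, 77.0 and 123. In TAC at 8 weeks the exons had 9.58, 13.3 and 12.9 and the sum 114, 124 and 141. Tns3 exons 18 to 20 had another order than the sum in TAC at 1 week (19.99, 12.5, 7.99 and 17.5). So had Itgbl1 exons 3 to 7 (3.08, 1.92, 15.97 and 4.86) and Ablim3 exons 4 to 8 (3.08, 3.83, 0 and 0.973). A link to the leukocyte sum was not tested. Csf1r, Ptprc, Itgam and Cd74 had no circle.

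Of 17 fibroblast marker genes 4 had circles (6 circles), with 4 positive, 2 negative and none called at 1 week, and Col1a1, Pdgfra, Tcf21 and Postn had none, so circles alone could not check the labelled cell type. Endothelial genes had circles for 3 of 15 (5 circles), at 8.98 to 11.5 in TAC and 5.02 to 16.5 in sham at 1 week, with none called. The mural list had 1 circle, at 0.973 to 4.61 in TAC and 0 to 9.31 in sham. The part of other cell types in the changes of the 13 circles was not tested.

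Other adhesion and actin genes were read against the same table. A list of 163 of them, with the 6 hosts left out, had circles for 34 genes, 65 circles in all. At 1 week 1 of the 65 was called, lower in TAC, and none was higher, in a table with 1.46% called (25 of 1717). Of the 65 fold changes 28 were positive and 37 negative, with a median of -0.15 against 0.04 over the table. No circle of the list was called in the other 9 comparisons by limma or limma-voom, where limma called 0% to 0.641% of the table. In each, 4 to 7 of the 65 had an unadjusted p under 0.05, against 88 to 170 of the 1717. At 4 and 8 weeks, 32 and 39 of the 65 TAC over sham fold changes were positive.

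The called one was Dock1 exons 26 to 27 (chr7:134874058-134876315), from an activator of Rac that works downstream of focal adhesions. It had 0, 3.83, 0.998 and 1.95 in TAC and 17.6, 15.0, 1.503 and 5.17 in sham at 1 week. The groups overlapped through sham replicate 3, and the log2 fold change was -2.16 ± 0.58 (adjusted p 0.0241, limma). The call was lost without TAC replicate 1 (-1.58) or 3 (-2.11) or sham replicate 1 (-1.74) or 2 (-1.81), and with limma-voom. Arhgap10 exons 9 to 13 (chr8:77382725-77411128), from a GTPase-activating protein, had 13.8, 3.83, 5.99 and 4.86 in TAC and 1.26, 0, 1.503 and 2.07 in sham, without overlap (2.23 ± 0.69, adjusted p 0.0704).

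Among 270 circles with a mean of at least 5 normalized reads, likeness to a member was measured as the root mean square difference of the 6 group means of log2(value + 0.5), each centred. The most like Tns3 exons 14 to 16 were Qrich1 exons 3 to 4 (0.21), Phkb exons 3 to 7 (0.22) and Setbp1 exon 2 (0.22). Setbp1 exon 2 averaged 18.3 in TAC and 7.54 in sham at 1 week. Of the 3 most like Ptk2 exons 2 to 4, Bbs9 exons 14 to 17 (0.22) and Arhgap26 exons 7 to 10 (0.23) are named here. Ablim3 exons 4 to 8 had less close neighbours, Epn2 exons 4 to 7 (0.33), Dock1 exons 26 to 27 (0.34) and Mboat2 exons 2 to 3 (0.34). Epn2 exons 4 to 7 averaged 1.97 in TAC and 7.94 in sham at 1 week, levels close to the 1.97 and 10.1 of Ablim3 exons 4 to 8. These values rest on 6 group means of the same 24 libraries and are a description.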

How the data were processed

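Circular RNAs were measured by total RNA sequencing of heart fibroblasts in 24 libraries (Ribo-Zero Gold, TruSeq Stranded Total RNA, per the labels' protocols). FastQC, Trimmomatic, STAR and build mm10 are named without versions in the submitters' processing notes; the caller's settings and normalization were not given in the sources used here. What the authors deposited is a normalized signal: with 0.01 taken off, each library's values were whole multiples of 1 step, so 100% of the values gave whole reads within 0.001 of a read. Totals were 3595 to 9146 reads per library, with a median of 2 reads per circle and library, which limits precision for scarce circles. Table columns were assigned through the sample descriptions, and replicates are numbered as in the titles. Hosts and exons came from GENCODE M21 (mm10).

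The main test was limma 3.58.1 (R 4.3.3; empirical Bayes with a trend on mean level), on log2(normalized reads + 0.5), all 24 libraries, 6 groups, no covariate and no filter, adjusted by Benjamini-Hochberg over 1717 circles per comparison; it was tested on simulated data. Edge-to-edge matching to the 6 hosts chose the members. The members, the gene lists and the naming rule were chosen with earlier results of these data known. Named were all member circles, list circles called in a comparison or else the 3 with the smallest p at 1 week, and the 3 circles most like the most abundant circle of each host where that averaged at least 5 normalized reads; 2 circles that this rule names are not reported here. A count test had been planned for reads recovered from the values and was replaced by limma-voom, chosen after seeing the data. Other alternatives were the pseudocount, TMM scaling, a filter, the libraries in the fit, the replicate block and leaving out each library. The 37 pairs of libraries within groups each differed beyond sampling noise (chi-square p of at most 0.0109).

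Titles number the replicates of TAC and sham alike without naming a shared day or litter. Deviations of same-numbered TAC and sham libraries at 1 week were compared over circles with a mean of at least 5 normalized reads. They went together (correlations of 0.26, 0.15, 0.23 and 0.16), so the 1-week numbers were taken as pairs in an added fit with a replicate block. The main fit held no pairing. Over all circles the 1-week correlations were 0.02 to 0.14. Over circles averaging at least 5, they ran over -0.19 to 0.17 at 4 weeks and -0.001 to 0.197 at 8 weeks, and no pairs were taken there. The best correlated sham library had the same number for TAC replicates 1, 2 and 3 at 1 week, 3 at 4 weeks, and 1 and 2 at 8 weeks. At 4 and 8 weeks the title numbers do not all follow the library names in the sample descriptions. Pairs by library name were not checked, and the replicate block over all times used the title numbers.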

Additional observations from a re-analysis of the deposited data

Results flagged for a closer look

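A library far from the rest of its group, by Dixon's test at 95%, was found in 7 of the 34 groups of 4 or 5 libraries tested. The groups were those of 7 of the 13 circles, the most abundant of each host and Tns3 exons 18 to 20. Chance flags about 1 in 20 groups only where values are normally distributed. Many values here are a few reads, with ties at 0, so the 7 flags cannot be set against that rate. Tns3 exons 14 to 16 had 20.1 normalized reads (16 reads) in sham 1 week replicate 1, beside 4.51, 4.99 and 6.204 in the other 3. Tns3 exons 18 to 20 had 0 in sham 1 week replicate 3, beside 3.74, 3.77 and 4.14. Itgbl1 exons 3 to 7 had 12.3 (17 reads) in TAC 4 weeks replicate 3, beside 1.69, 2.20 and 2.57, and 3.30 (3 reads) in sham 8 weeks replicate 2, beside 0.962, 1.06 and 1.06. Ablim3 exons 4 to 8 had 12.5 (13 reads) in sham 8 weeks replicate 3, beside 4.26, 5.30 and 5.50. Rock1 exons 7 to 9 had 0 in sham 8 weeks replicate 2, beside 1.92, 2.12 and 2.13, and Mtss1 exons 4 to 6 had 0.934 (1 read) in sham 4 weeks replicate 1 beside 4 libraries at 0. The Rock1 and Mtss1 cases and the sham Itgbl1 case rest on 3 reads or fewer per library.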

How the results depend on the processing

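Of 1075 refitted fold changes of the 13 circles, 1024 kept their side of the threshold, 49 lost a call and 2 moved by more than the spread. None gained a call, and none of the called fold changes reversed. For uncalled TAC against sham fold changes the sign was not compared, and some changed sign. That of Mtss1 exons 4 to 6 at 1 week ran from -0.43 to 0.18 with 1 library left out. At 1 week the call of Tns3 exons 14 to 16 was also lost with a pseudocount of 0.1, limma-voom and the 1-week libraries alone, and those of Itgbl1 exons 3 to 7 and Ablim3 exons 4 to 8 with the 1-week libraries alone. The averaged calls were lost with a pseudocount of 0.1 (Tns3 exons 18 to 20 at 1.404, Itgbl1 exons 3 to 7 at 2.52), for Tns3 with limma-voom (1.06) and for Itgbl1 with the replicate block (1.57). The 2 that moved were Mtss1 exons 4 to 6 (3.91) and Ptk2 exons 3 to 7 (2.40) at 4 weeks with a pseudocount of 0.1.

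Of the 1717 circles, 25 were called at 1 week, against 11 with limma-voom, 40 with a replicate block of the 1-week libraries alone (25 with the block over all times), 4 with only the libraries compared and 6 to 32 with 1 library left out. At 4 weeks 2 were called, against 0 with a pseudocount of 0.1, 6 with a pseudocount of 1, 6 with TMM scaling, 7 with limma-voom, 4 with the replicate block, 14 with only the libraries compared and 0 to 4 with 1 library left out. Averaged over the times 11 were called, against 5 with a pseudocount of 0.1, 19 with limma-voom and 4 to 17 with 1 library left out. For TAC at 4 weeks over 1 week 0 were called, against 1 with a pseudocount of 0.1, with limma-voom and with a mean of at least 5 normalized reads, and 0 to 1 with 1 library left out. For sham at 4 weeks over 1 week the counts were 0, 1 with that filter and 0 to 4 with 1 left out; at 8 weeks over 1 week they were 2, 1 with limma-voom, 0 with only the libraries compared and 0 to 4 with 1 left out. For the change of the TAC effect at 4 weeks the counts were 0, 1 with the replicate block and 0 to 1 with 1 left out, and at 8 weeks 0, 2 with a pseudocount of 1 and 0 to 8 with 1 left out. TAC against sham at 8 weeks and TAC at 8 weeks over 1 week stayed at 0. The cause of these changes was not tested. The replicate block changed no other call of the 13 circles in the 10 comparisons. The planned count test was not run, and under the filter only circles averaging at least 5 normalized reads have a value.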
